A study of Mus musculus with 3 samples.

Results

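The genes described here are the 200 mouse genes whose RNA, in the nuclear fraction of macrophages, was assigned most heavily to transcripts annotated as retained_intron. A gene was considered when the annotation gives it both a protein-coding transcript and a transcript of the type retained_intron, and when its mean expected count over the libraries was at least 500. Of 55536 annotated genes, 9120 had both transcript types and 3471 also passed the count minimum. For each library the expected counts of a gene's retained_intron transcripts were divided by those of all its transcripts, and the 200 genes with the highest mean of this retained-intron share were taken, which is 5.76% of the genes considered. All 200 passed the count minimum by construction. The genes were thus selected on their measured expected-count shares in these same libraries, so their high shares are a description and carry no test, and no difference between them and the other genes was tested.

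The cells were primary macrophages grown from bone marrow of C57BL/6J mice, a common inbred strain. They had been stimulated for 15 min with 100 ng/ml Lipid A, the membrane-anchored part of bacterial lipopolysaccharide, which the receptor Tlr4 senses. RNA came from the nuclear compartment, which the sample descriptions also call nucleoplasmic, and ribosomal RNA was depleted before sequencing. There were 3 biological replicates of this single condition and no unstimulated or cytoplasmic samples were analysed here, so neither an effect of Lipid A nor a difference between compartments can be read from the values. Replicate 2 started from 500 ng of RNA, and replicates 1 and 3 from 1000 ng. The age and sex of the animals were not recorded, and all libraries point to 1 donor entry through separate biosamples, so the differences between replicates given below may in part be technical.

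Introns are normally removed while a gene is still being transcribed. Some transcripts keep 1 or more introns for longer and stay in the nucleus, where they can be spliced later or be degraded, and genes for splicing factors are well known for such introns. The annotation type retained_intron marks a transcript model that contains intron sequence relative to the coding models of the same gene. Models of this type are also called intron-keeping below, whether or not they hold a complete intron of a coding transcript. Reads from a stable RNA with a kept intron and reads from a precursor whose introns had not yet been removed cannot be told apart in these files, since both cover the same bases. This limit touches every share given here.

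The 3 libraries held 18516063, 17345644 and 20947006 expected counts in annotated genes for replicates 1, 2 and 3. The 200 genes took 3.11%, 3.04% and 2.83% of them, and all 3471 genes considered took 44.6%, 45.2% and 43.6%. All 10 macrophage markers checked were present, with mean levels from 26.3 to 1978 TPM (a level scaled to transcript length and library size), while no list of markers for 8 other cell types had a median above 0.455 TPM in any library. The highest marker mean in those 8 lists was 4.23 TPM, for an endothelial marker.

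The selected genes gave most of their counts to transcripts of the type retained_intron in every library. Their median share was 75.4%, 78.7% and 74.1% in replicates 1, 2 and 3, against 16.4%, 16.5% and 14.7% for the other 3271 genes considered. The mean share per gene ran from 66.0% to 99.97% with a median of 75.3% and quartiles of 70.8% and 81.2%, against a median of 15.9% for the other genes. Of the 200, 17 had a mean share of 90% or more, 42 lay between 80% and 90%, 97 between 70% and 80%, and 44 below 70%. All 200 stood at 50% or more in each of the 3 libraries, which the choice of genes makes likely, against a background of 10.7% of all genes considered. It follows from these shares that in all 200 the protein-coding transcripts held fewer counts than the retained_intron ones in each library. Over all genes considered this was so in 12.7%. Protein-coding transcripts had a median of 21.4% of the counts of a selected gene and 78.5% of those of another gene.

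The boundary of the group is not a gap. The last gene inside, Ncapg2, a subunit of the condensin complex that compacts chromosomes, had shares of 56.3%, 73.8% and 67.8%, a mean of 66.0% ± 8.87 (SD, n = 3). The first gene outside, Gfm2, a mitochondrial translation factor, had 65.8%, 67.6% and 63.6%, a mean of 65.7% ± 1.98 (SD, n = 3). The means at this edge differ by less than the spread between libraries, so the number 200 is a convention.

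**Figure D1:**
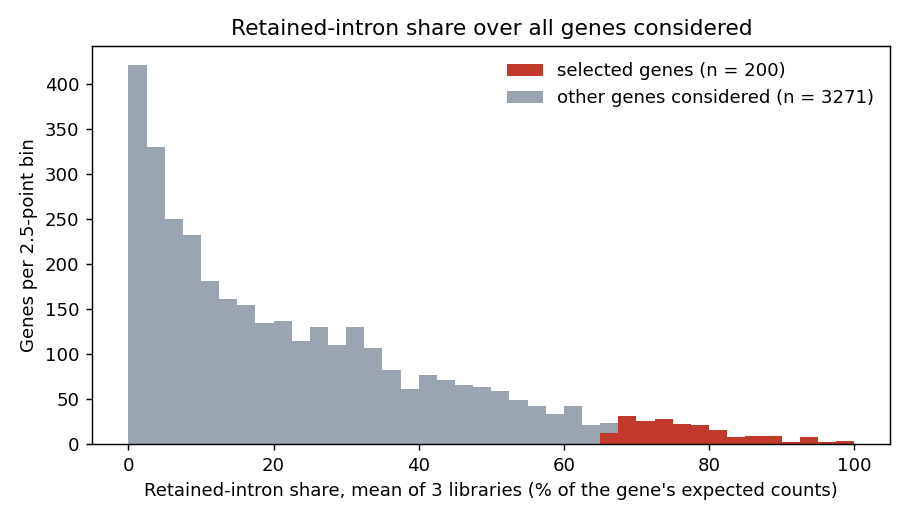
Histogram of the mean retained-intron share (x axis, percent of a gene's expected counts) with the number of genes per bin on the y axis. The 200 selected genes form the right tail from 66.0% up, and the other 3271 genes pile up at low shares around a median of 15.9%, with no gap between them.

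The counting error was small beside the shares. The widest of the 3 Wilson 95% intervals of a gene had a median width of 5.23 percentage points over the selected genes and at most 12.5 points. Intervals cover counting error only, and not the error of dividing reads among overlapping transcript models. The deposited posterior standard deviation of the most abundant retained_intron transcript addresses that division, within the quantification model. It was a median of 1.70% of its count in the selected genes, with a maximum of 21.8%, and 4.21% in the other genes. The selection favoured genes with many counts in such transcripts, so the lower median does not show that reads were divided more surely in the selected genes.

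The genes with the highest shares varied in function. Slc27a1, which encodes a fatty acid transport protein, had 4512, 2243 and 3285 counts in retained_intron transcripts and 0, 0 and 1.37 in protein-coding ones, so that its share was 100%, 100% and 99.9%. The lower limits of its 95% intervals were 99.91%, 99.83% and 99.73%. Rbm4b, an RNA-binding regulator of splicing, had 99.1%, 99.5% and 98.2%. Both genes were near the ceiling in every library, and their libraries overlapped within 2 points. Bbs10, a chaperonin-like protein needed for cilia, has a single intron, and its share was 99.1%, 97.4% and 100%. Amn1, whose yeast counterpart restrains exit from mitosis, had 97.4%, 98.4% and 96.7%, carried mainly by a retained_intron transcript of 15841 bases. Across the leading 25 genes the lowest share in any library was 82.3%, for Dusp1 in replicate 1.

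**Figure D2:**
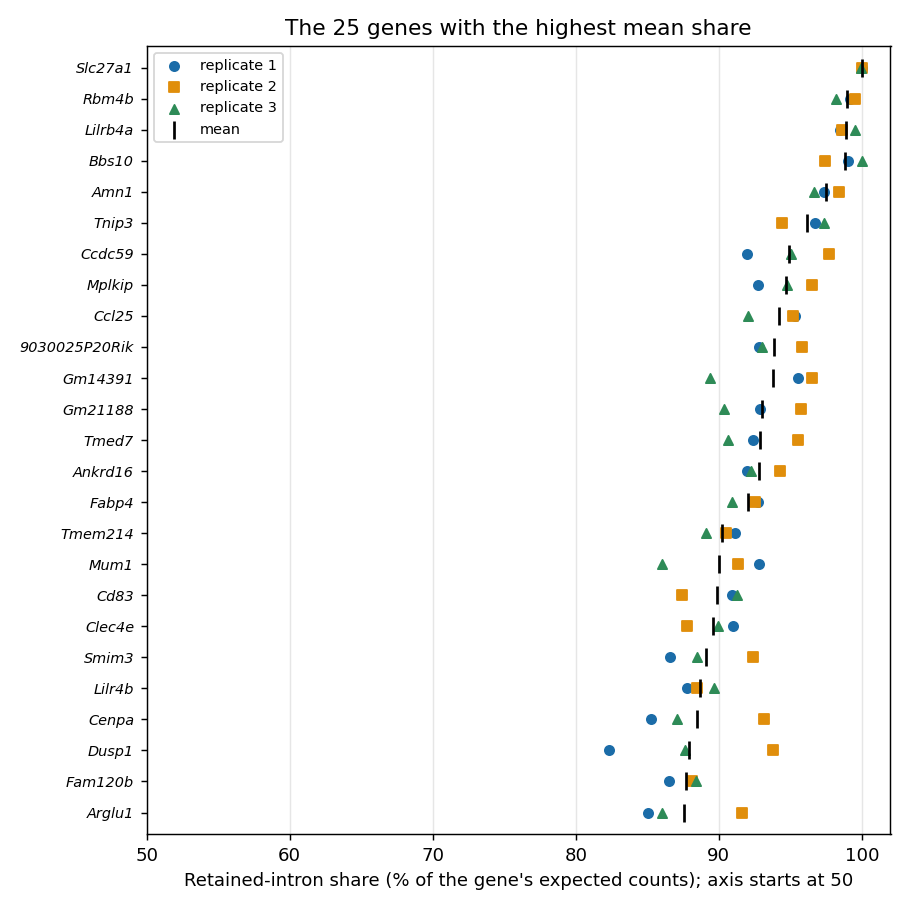
Retained-intron share (x axis, percent of the gene's expected counts, starting at 50) of the 25 genes with the highest mean, 1 line per gene, with a symbol per replicate and a bar at the mean. The points of Slc27a1 and Rbm4b coincide near 100%, while Dusp1 spreads from 82.3% to 93.8%.

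The 2 genes with the highest TPM among the 200 were Lilrb4a, an inhibitory immunoglobulin-like receptor of myeloid cells, and its neighbour Lilr4b, a closely related receptor. Lilrb4a (chr10:51490956-51496611 in mm10, plus strand) had 1229, 1111 and 650.0 TPM, and a share of 98.5%, 98.6% and 99.5%. Lilr4b (chr10:51480632-51486703, plus strand) had 1101, 1046 and 617 TPM, and a share of 87.8%, 88.5% and 89.7%. For both, replicate 3 was the lowest in level while the shares hardly moved. Pirb, another inhibitory receptor of the same superfamily, had 128, 265 and 184 TPM with shares of 77.5%, 77.2% and 78.6%. These receptors belong to families of near-identical copies, and the division of reads among copies and among their transcripts is uncertain. Lilrb4a and Lilr4b also share exonic bases with the annotated gene Gm49339.

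Other abundant members act in metabolism and at the cell surface. Sat1, which acetylates polyamines, had 256, 570.0 and 529 TPM and shares of 72.7%, 80.04% and 74.7%. Ms4a7, a membrane protein of macrophages, had 208, 308 and 222 TPM and shares of 77.8%, 84.1% and 72.6%. Xdh, the enzyme that makes uric acid, had 128, 204 and 170 TPM and shares of 79.8%, 80.3% and 75.2%. All 3 genes were highest in both quantities in replicate 2. The fatty acid binding proteins Fabp4 and Fabp5, both lipid carriers, differed in how steady they were. Fabp4 had shares of 92.7%, 92.5% and 90.9%, and Fabp5 had 62.4%, 78.9% and 75.6%.

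The count minimum kept genes with few counts out of both groups, so the levels cannot show whether the selected genes are rare. They only compare the groups above that minimum. The selected genes had a median of 23.7, 25.5 and 20.5 TPM in replicates 1, 2 and 3, against 20.1, 22.7 and 16.4 TPM for the other genes. The difference in median log2(TPM + 0.1) was 0.24 ± 0.08 (SD, n = 3). In log2(CPM + 0.1), which does not divide by length, the difference was -0.055, so its direction depends on the length correction. The median gene count was 1236 in the selected genes and 1284 in the others.

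What the intron-keeping transcripts contain was read from the annotation. Here an intron is called retained when an intron of a protein-coding transcript lies wholly inside an exon of a retained_intron transcript of the same gene. Of the 200 genes, 159 had at least 1 such intron, against 49.8% of all genes considered and 1568 of the other 3271. In 44 of the 159 there was exactly 1, and in 115 there were more. In the other 41 selected genes no retained_intron exon contains a complete intron of a coding transcript. Srsf11, Nfkb1 and Xdh are among these 41.

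In total, 505 of 2351 introns of the selected genes were retained in this sense (21.5%), against 3565 of 60974 introns of the other genes (5.85%). The selected genes also have more annotated retained_intron transcripts, a median of 4 against 2, and fewer introns, a median of 10 against 16. The part of these numbers in the contrast was not tested. The retained introns of the selected genes had a median length of 476 bases with quartiles of 157 and 1090, and the longest had 15387 bases. Those of the other genes had a median of 299 bases. Introns that were not retained were longer in both groups, with medians of 1354.5 bases in the selected genes and 1488 in the others. The splice sites were ordinary, since 496 of 505 began with GT and ended with AG (98.2%), against 98.0% in the other genes. GC content had a median of 48.6% in the selected genes and 50% in the others.

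Most retained introns interrupt the reading frame. Of the 505, 467 lie within the coding region, and 437 of these (93.6%) contain a stop codon when read on in the frame of the upstream exon, against 2977 of 3299 (90.2%) in the other genes. In 177 of the 467 (37.9%) the length was a multiple of 3, against 33.3% in the others, and only 9 of the 467 had such a length and no stop. A first intron made up 17.2% of the retained introns and 19.7% of all introns of the selected genes. The donor began with GTAAGT or GTGAGT in 145 of 505 (28.7%), against 24.7% in the other genes, searched on the gene's strand only. The stretch of 20 bases before the final AG was a median of 70% pyrimidines in the selected genes and 75% in the others.

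The following short introns show what such transcripts keep. The first set holds retained introns of at most 300 bases from among the members whose covering retained_intron transcript had the highest counts, 1 per gene. Sequences were read from the annotated retained_intron transcripts of GENCODE M21 on mm10, are given 5′ to 3′ on the gene's strand, and have the first and the last pair of bases, the splice sites, in capitals.
Lilrb4a intron 3, chr10:51491719-51491860 (+): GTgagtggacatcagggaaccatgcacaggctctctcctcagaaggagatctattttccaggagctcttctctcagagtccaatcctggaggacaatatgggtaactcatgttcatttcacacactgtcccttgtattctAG
Lilr4b intron 3, chr10:51481425-51481566 (+): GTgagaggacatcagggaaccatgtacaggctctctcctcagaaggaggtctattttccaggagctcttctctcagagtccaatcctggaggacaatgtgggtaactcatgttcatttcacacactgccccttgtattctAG
Pirb intron 6, chr7:3716891-3717117 (-): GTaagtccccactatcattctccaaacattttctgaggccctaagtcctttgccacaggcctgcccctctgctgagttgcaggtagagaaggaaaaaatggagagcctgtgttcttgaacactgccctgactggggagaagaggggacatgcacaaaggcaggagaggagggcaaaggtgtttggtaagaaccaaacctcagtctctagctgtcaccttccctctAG
Ube2d3 intron 2, chr3:135455250-135455345 (+): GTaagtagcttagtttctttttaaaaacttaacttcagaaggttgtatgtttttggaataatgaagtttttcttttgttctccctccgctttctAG
Cxcl2 intron 1, chr5:90904024-90904115 (+): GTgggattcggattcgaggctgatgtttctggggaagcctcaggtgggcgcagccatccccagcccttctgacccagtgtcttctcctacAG
Taf1d intron 1, chr9:15311696-15311817 (+): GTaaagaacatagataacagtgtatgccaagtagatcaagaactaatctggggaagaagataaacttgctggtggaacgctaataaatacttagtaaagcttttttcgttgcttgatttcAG
Cd83 intron 1, chr13:43785251-43785345 (+): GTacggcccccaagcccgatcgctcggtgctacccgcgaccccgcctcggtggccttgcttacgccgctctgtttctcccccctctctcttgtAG
The introns of Lilrb4a and Lilr4b are the same at 137 of 142 bases (96.5%) and neither contains an in-frame stop, while the other 5 do. Ube2d3, a ubiquitin-conjugating enzyme, has a covering transcript of 19300 bases, so its short intron is a small part of what the counts report. Taf1d is a subunit of an RNA polymerase I factor.

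Genes of the splicing machinery were on 3 of the lists examined. Of 10 SR protein genes considered, which encode arginine- and serine-rich activators of splicing, 3 were members (30%, against 5.76% of all genes considered) and the median share of the 10 was 54.1%, against 17.7% over all genes considered. Srsf11 had shares of 85.0%, 87.1% and 84.1%, a mean of 85.4% ± 1.55 (SD, n = 3). Srsf3 had 70.6%, 77.1% and 75.6%, and its main transcript, Srsf3-204, keeps introns of 2150 and 393 bases. Srsf5 had 68.0%, 72.7% and 63.5% at a level of 265, 243 and 233 TPM, and its main transcript keeps an intron of 1229 bases. All 3 had their highest share in replicate 2. Just below the boundary, Tra2a and Srsf7 had means of 62.4% and 62.2%, followed by Srsf2 with 46.0%, Tra2b with 44.3%, Srsf6 with 35.6% and Srsf4 with 32.3%. Srsf1 was far from them, with shares of 1.66%, 6.77% and 5.35%.

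The kinases that phosphorylate SR proteins formed a second list. Of 10 considered, 2 were members (20%, against 5.76% of all genes considered) and the median share was 36.1%. Clk1 (chr1:58410189-58424066, minus strand) had 3077, 3440 and 3884 counts in retained_intron transcripts and 167, 128 and 230.2 in protein-coding ones. Its share was 78.0%, 78.7% and 74.96%, with a further 11.8% of its counts in transcripts of the nonsense-mediated decay type. Its main retained_intron transcript, Clk1-204, keeps introns 3, 4 and 6 of 12, of 871, 387 and 87 bases. Introns 3 and 4 flank exon 4, and their retention in the nucleus is known from earlier work on this kinase. Srpk1, which acts mainly in the cytoplasm, had 72.1%, 71.0% and 73.6%. The other Clk genes lay outside the group, Clk3 with a mean of 63.5%, Clk4 with 57.9% and Clk2 with 50.6%. Hipk2 and Prpf4b were at 7.98% and 7.06%.

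Among 51 genes of the spliceosome and the hnRNP family, 4 were members (7.84%, close to the 5.76% of all genes considered) and the median share was 22.7%. The members Hnrnpll, Rbm5 and Snrnp70 are described here. Hnrnpll, an RNA-binding protein of the hnRNP family, had 83.9%, 83.6% and 84.6%, a range of less than 1 point. Rbm5, a regulator of alternative splicing, had 80.2%, 84.7% and 76.2%, and Snrnp70, a protein of the U1 particle that recognises the donor site, had 74.1%, 82.1% and 70.1%. The closest gene of this list outside the group was Luc7l2, a U1-associated protein, with a mean of 62.0%.

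Further members with a link to splicing came from outside these 3 lists. Rsrp1, an arginine- and serine-rich protein, had the most counts of them, 19113, 20976 and 31049 in retained_intron transcripts against 564, 176 and 729 in protein-coding ones. Its share was 86.7%, 87.0% and 83.8%, and its single retained_intron model keeps intron 3, of 1302 bases. Arglu1, a coactivator that also affects splicing, had 85.0%, 91.6% and 86.0% and keeps intron 2, of 2280 bases. Ccnl2, a cyclin that binds splicing kinases, had 70.7%, 73.8% and 64.5%, and its relative Ccnl1 was just outside with a mean of 65.3%. Thoc1, a part of the complex that couples transcription to mRNA export, had 70.9%, 77.0% and 62.7%.

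The early response to bacterial products supplied 4 members of the 19 genes of that list considered (21.1%, against 5.76% of all genes considered), and the median share of the 19 was 40.8%. Dusp1, a phosphatase that switches off MAP kinases, had 172, 143 and 174 TPM. Its share was 82.3%, 93.8% and 87.6%, a mean of 87.9% ± 5.73 (SD, n = 3). Its main transcript, Dusp1-203, keeps intron 2, of 369 bases. The neutrophil-attracting chemokines Cxcl1 and Cxcl2 are neighbours on chromosome 5 and have small genes. Cxcl1 had 50.6, 17.1 and 36.6 TPM and shares of 77.4%, 84.1% and 78.8%. Cxcl2 had 187, 77.5 and 174 TPM and shares of 75.6%, 83.9% and 81.1%. For both chemokines replicate 2 was the lowest in level and the highest in share. Rgs1, which shortens G protein signalling, had 104, 153 and 119 TPM and shares of 75.9%, 80.7% and 74.4%. Fosl2, a subunit of the AP-1 factor, was the closest gene outside, with a mean of 59.1% that spread from 48.5% to 69.9%.

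Both chemokine genes keep all 3 of their introns in their main retained_intron model, Cxcl1 with 89, 115 and 718 bases and Cxcl2 with 92, 117 and 748 bases. Only 209 bases of Cxcl2 are found in retained_intron transcripts alone, so at least part of its 748-base intron is also exonic in a protein-coding transcript. Reads there do not tell the models apart. The whole gene of Cxcl1 spans 1875 bases and its retained_intron model 1871, so that model is nearly the unspliced gene. For such a model, counting a read for the retained_intron transcript and counting it for a precursor are the same act. Its first intron is shown with short introns of Clk1 and Clec4e, chosen after their values were seen as examples of genes described here, in the same notation.
Cxcl1 intron 1, chr5:90891381-90891469 (+): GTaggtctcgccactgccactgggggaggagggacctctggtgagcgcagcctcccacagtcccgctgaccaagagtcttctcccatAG
Clk1 intron 6, chr1:58417180-58417266 (-): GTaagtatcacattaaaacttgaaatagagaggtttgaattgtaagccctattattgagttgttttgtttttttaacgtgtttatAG
Clec4e intron 3, chr6:123286360-123286431 (-): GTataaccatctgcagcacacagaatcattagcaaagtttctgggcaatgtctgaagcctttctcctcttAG
Each of these 3 introns contains an in-frame stop codon. That of Clk1 has 27.6% GC and that of Cxcl1 64.0%, so the shown introns share the splice sites and little else in composition.

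Among 32 genes of Tlr4, NF-kB and MAP kinase signalling, 4 were members (12.5%, against 5.76% of all genes considered), and the median share was 17.2%, against 17.7% over all genes considered. Tnfaip3, which encodes the ubiquitin-editing brake A20, had 4942, 1587 and 4657 counts in retained_intron transcripts and 2104, 665 and 2379 in protein-coding ones. Its share was 70.1%, 70.5% and 66.2%, steady although its level varied, at 110, 54.2 and 84.3 TPM. Nfkbie, an inhibitor that holds NF-kB in the cytoplasm, had 82.1%, 70.6% and 88.6%, lowest in replicate 2. Nfkb1, which encodes the p105 precursor of the p50 subunit, had 68.4%, 68.6% and 65.9%. Irf7, a factor for type I interferon genes, had 63.5%, 76.3% and 76.2%, lowest in replicate 1, and all 12 distinct introns of its protein-coding transcripts lie within an exon of some retained_intron model. Tnip3, a partner of A20 that was not on the list, reached 96.7%, 94.4% and 97.3% while its level differed, at 130, 37.7 and 33.8 TPM.

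Surface molecules of activated macrophages were also present. Cd83, an immunoglobulin-like protein of activated antigen-presenting cells, had 26.5, 38.3 and 79.9 TPM and shares of 90.9%, 87.4% and 91.3%. Clec4e, the receptor Mincle for mycobacterial glycolipid, had 28.7, 22.6 and 28.4 TPM and shares of 91.0%, 87.8% and 89.95%. Both shares were lowest in replicate 2, as was the level of Clec4e, while the level of Cd83 was lowest in replicate 1. Among 25 interferon and antigen presentation genes 3 were members (12%, against 5.76% of all genes considered), and the median share of the 25 was 16.7%, below the 17.7% of all genes considered. The members were Tap2 with 79.5%, 63.8% and 78.6%, Zbp1 with 66.1%, 76.7% and 71.3% and Xaf1 with 68.5%, 72.0% and 68.1%. Tap2 pumps peptides for class I molecules, Zbp1 senses nucleic acids and Xaf1 is an interferon-induced partner of the apoptosis regulator Xiap.

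**Figure D3:**
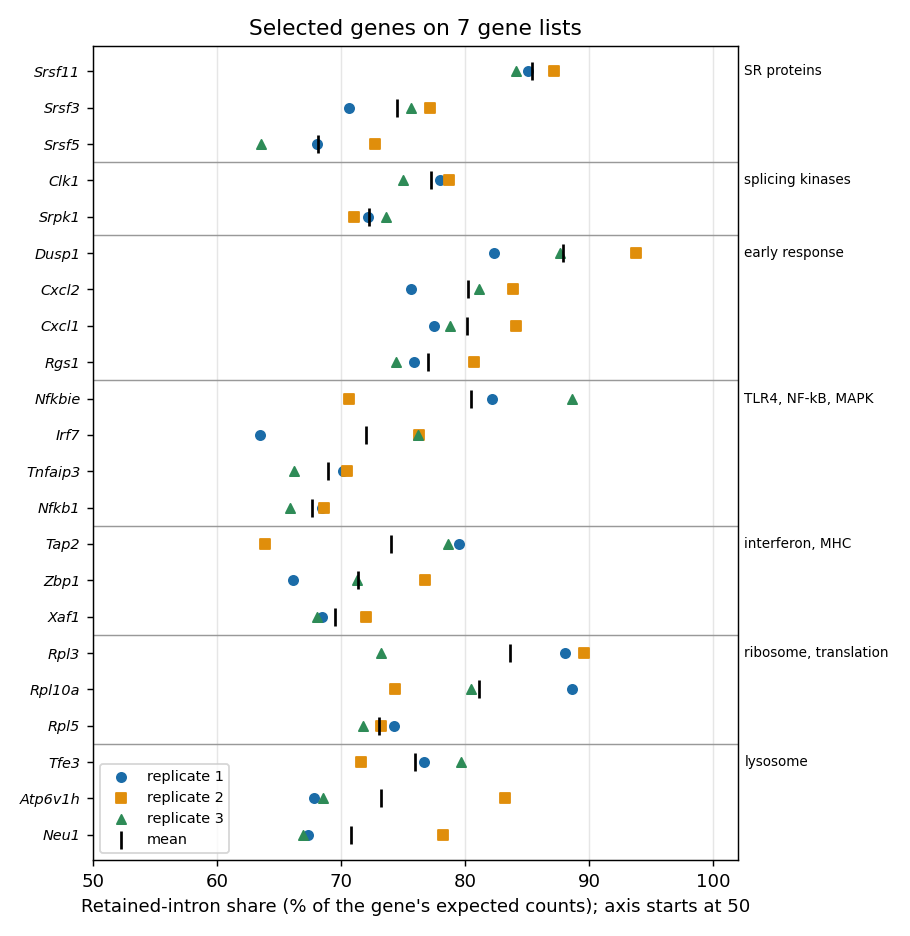
Retained-intron share (x axis, percent of the gene's expected counts, starting at 50) of the members on 7 gene lists, 1 line per gene, with a symbol per replicate and a bar at the mean. All 4 early response genes have their highest point in replicate 2, whereas Nfkbie and Tap2 have their lowest there.

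Of 41 ribosomal and translation genes considered, 3 were members (7.32%, against 5.76% of all genes considered), and the median share of the list was 26.2%. Rpl3 had 88.0%, 89.6% and 73.2%, Rpl10a had 88.6%, 74.4% and 80.4%, and Rpl5 had 74.2%, 73.2% and 71.7%. All 3 encode proteins of the large ribosomal subunit, and the retained_intron exons of Rpl3 and Rpl5 overlap small RNA genes. Of 32 lysosome genes 3 were members (9.38%), with a list median of 11.8%, the transcription factor Tfe3 with a mean of 76.0% ± 4.08, the proton pump subunit Atp6v1h with 73.2% ± 8.69 and the sialidase Neu1 with 70.8% ± 6.40 (SD, n = 3 each). The tRNA synthetase Farsa was the only member among 13 genes of its list considered (7.69%), and the ATP synthase subunit Atp5l among 8 (12.5%). The chromatin remodeller subunit Smarcb1 was 1 of 44 (2.27%). None of the 12 macrophage identity genes considered was a member, and the closest was Ptprc, the phosphatase CD45, with a mean of 62.2%. As only 5.76% of all genes considered were selected, a list this small can lack members without standing apart. Over all 14 lists 31 of the 200 members were named and 169 were on none.

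The shares moved between libraries more in the selected genes than in the rest. The SD over the 3 libraries had a median of 4.19 points in the selected genes and 2.13 points in the others. In 126 of the 200 genes (63.0%) the share was highest in replicate 2, against 42.7% of all genes considered, and in 49 and 25 it was highest in replicates 1 and 3. The share in replicate 2 exceeded the mean of the other libraries by a median of 4.01 points in the selected genes and 0.493 points in the others. Replicate 2 was also the library made from the smaller amount of RNA and the one with the fewest counts; the part of either in this difference was not tested. A range of 20 points or more occurred in 12 selected genes (6.0%), against 1.73% of all genes considered. The genes were chosen on the mean of these same shares, so a high value in any 1 library helped a gene into the group. The other genes had low shares, with a median of 15.9%. How much the selection and the height of the share contribute to the contrasts in this paragraph was not tested.

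The widest range belonged to Ltbp3, a protein that binds latent TGF-beta, with 57.7%, 86.1% and 59.5%. Its protein-coding transcripts had 347, 91.1 and 460.4 counts and its retained_intron ones 474, 564 and 677. Ugt1a6a, a glucuronidating enzyme, had 61.6%, 87.7% and 68.7%. Slc1a5, a glutamine transporter, went the other way with 77.0%, 56.6% and 79.6%, and Mpp7, a scaffold protein of cell junctions, was low in replicate 1 only, with 62.2%, 83.9% and 85.5%. Ugt1a6a shares exons with 8 other genes of its cluster, and the retained_intron exons of Ltbp3 are also among those that overlap another gene, so the assignment of their reads is uncertain.

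Many selected genes share annotated bases with a neighbour. The retained_intron exons of 78 of the 200 (39.0%) share bases with an exon of another annotated gene, against 22.3% of all genes considered and 696 of the other 3271 (21.3%). For 64 of the selected genes (32.0%) the partner lies on the opposite strand, against 16.2% of the others, and for 26 (13.0%) on the same strand, against 6.39%. The strandedness of the counting is not given in the sources used here, and reads of such partners may be included in the shares. Small RNA genes lie within the retained_intron exons of 9 selected genes (4.5%) and 105 of the others (3.21%). Without any gene that overlaps another, the 122 members left had a median share of 75.7%, against 13.7% for the remaining others. These 122 had been chosen on the same shares, so their median could not fall below 66.0%. The effect of overlapping reads on the shares was not tested.

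The share also followed how much sequence the annotation gives to the intron-keeping models. Bases annotated only in retained_intron transcripts made up a median of 60.4% of all exonic bases of these 2 types in the selected genes, against 25.1% in the others. Over all 3471 genes this percentage and the share had a Spearman correlation of 0.77, and within the 200 selected genes of 0.08. Both quantities are taken over the same transcript models, and the part of transcript length in the correlation was not tested. Of the 12 genes with over 80% of such bases, 11 were members, whereas of 1355 genes with under 20%, 10 were. The longest retained_intron transcript was longer than the longest protein-coding one in 174 of the selected genes (87.0%), against 18.6% of the others.

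In 10 members such bases made up under 20% of the total. Cd83 has 95 bases that only its retained_intron transcript covers, 3.69% of the total, and a share of 89.9% ± 2.12 (SD, n = 3). These 95 bases are the intron shown above. Tap2 has 162 such bases (4.38%), Bbs10 305 and Cxcl2 209 (10.1%). The other 6 of these genes are Stub1, Tmem132a, Pirb, Snapin, Ubp1 and Tmem214, with mean shares from 70.5% to 90.2%. Bases found only in protein-coding transcripts also tell the models apart. In these 10 genes they ran from 2 in Bbs10 and in Cxcl2 to 3177 in Tmem132a. Reads from bases that both types hold cannot distinguish the models, and their division rests on the quantification model. At the other end, Galc, a lysosomal enzyme, has 73.0% of its bases only in retained_intron transcripts and a share of 27.2%, 27.2% and 23.04%.

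**Figure D4:**
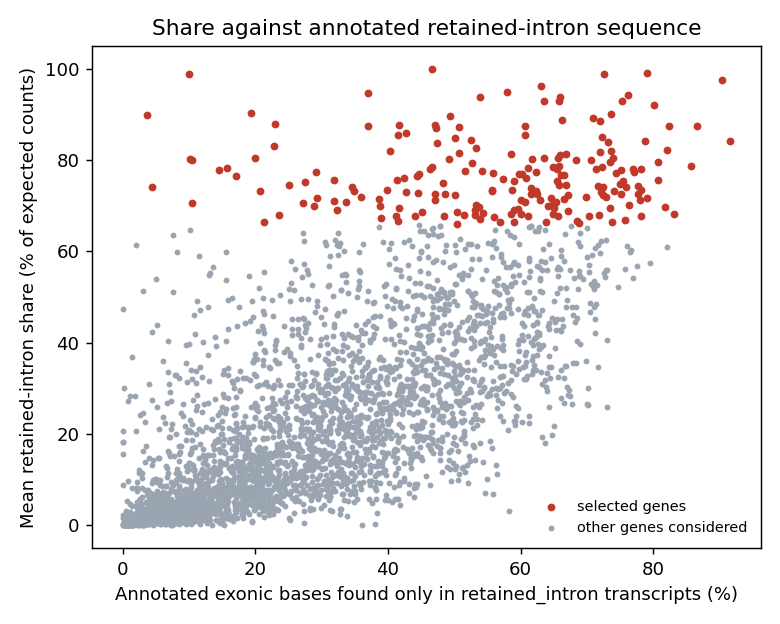
Mean retained-intron share (y axis, percent of expected counts) against the percentage of annotated exonic bases found only in retained_intron transcripts (x axis), 1 point per gene. Selected genes lie at 66.0% or more along most of the x axis, from 3.69% for Cd83 to 91.6% for Atp5l, and the other genes rise from left to right below them.

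Dividing by length lowers the shares of genes with long intron-keeping models. On TPM values the median share was 69.7% in the selected genes and 30.1% in the others. A mean TPM share of 50% or more was found in 179 of the 200 (89.5%) and in 16.1% of the others. By the stricter criterion used for counts, 50% or more in all 3 libraries, 162 of the 200 passed on TPM. Atp5l, whose main retained_intron transcript has 6310 bases against 544 for its longest protein-coding one, had 25.7% on TPM, against 84.1% on counts. Taf1d had 33.6% on TPM, against 78.0% on counts, and Srsf5 42.1%, against 68.1%. On the TPM scale these 3 genes gave most of their level to other transcripts.

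A second transcript table, quantified by another method, gave similar shares for most members. The median over the 200 was 75.9% in it, against 19.8% for the other genes. In 196 of the 200 the share was 50% or more in all libraries of this table, against 12.3% of all genes considered. Both tables lay within 10 points of each other for 184 of the selected genes (92.0%) and 89.4% of the others. The second table was higher for 95 of the 200 and for 79.0% of the others. Both tables come from the same libraries, so this compares methods and not samples.

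The members on which the methods parted were few. Ugt1a6a was 22.6 points lower in the second table, at 50.1%, and Mrpl33, a mitochondrial ribosomal protein, 21.5 points lower, at 46.6%. Tbce, a tubulin-folding cofactor, was 18.1 points higher, at 84.6%, and Ilf2, a double-stranded RNA binding protein, 16.8 points higher, at 86.9%. Among the genes described above, Tnfaip3 was 10.1 points lower, at 58.9%, and Rsrp1 8.94 points lower, at 76.9%, while Clk1 moved by less than 1 point.

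**Figure D5:**
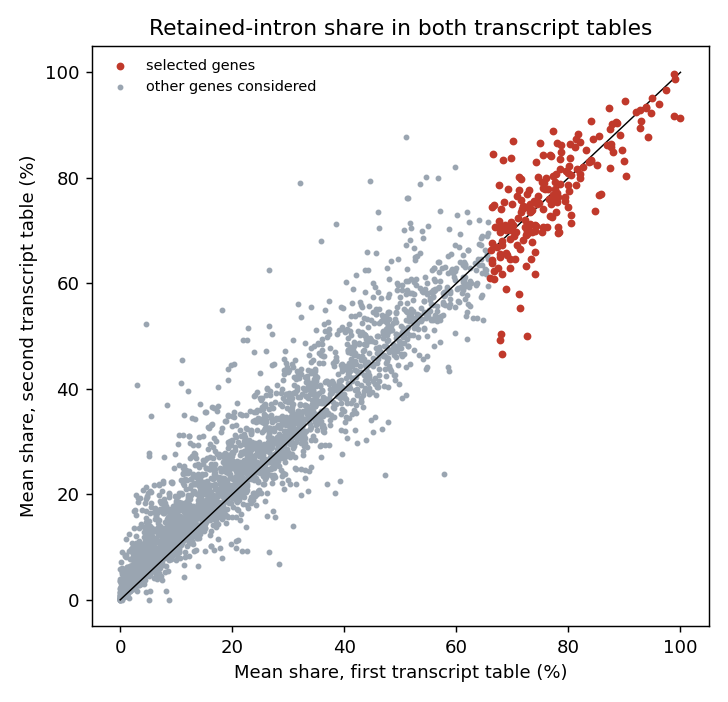
Mean retained-intron share in the second transcript table (y axis, percent) against the first (x axis, percent), 1 point per gene, with the line of equality. Selected genes lie along the line, with a few below it such as Mrpl33 at 46.6%, and most other genes lie slightly above it.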

How the data were processed

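Nuclear RNA of stimulated macrophages was sequenced in 3 libraries. Per the file headers, the gene table and the first transcript table deposited by the authors hold expected counts, that is reads divided among transcripts by a model, with TPM and a posterior standard deviation of each count (used as a score of uncertainty) under the column names that RSEM writes. The second transcript table deposited by the authors holds estimated counts and TPM under the names that kallisto writes. The submitters' processing notes name mm10 and GENCODE M21. The aligner, the program versions and the strandedness were not given in the sources used here. Rows without a mouse gene identifier held 1.24%, 0.372% and 0.0641% of the expected counts in replicates 1 to 3 and were left out.

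Transcript types were taken from field 8 of the transcript names, and shares were formed from expected counts as deposited, without rounding or normalization, with Wilson 95% intervals on rounded counts. The share is a ratio within a gene and a library, so library size cancels. Gene structures and intron sequences came from the GENCODE M21 annotation and transcripts. Levels used log2(TPM + 0.1). No test was run, because the samples form 1 group and the share chose the genes. To check for a library deposited more than once, counts of the genes considered were compared between libraries. Chi-square per degree of freedom was 163, 187 and 69.7 for pairs 1 and 2, 1 and 3, and 2 and 3. These values lie far above the value near or below 1 that copies would give.

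The genes, the 14 gene lists and the markers were chosen with earlier results of these data known. Named were the 25 members with the highest mean share, the 10 with the widest range over libraries, the 10 with the highest TPM, the 10 that differed most between the tables, the members of each list with its closest non-member, all SR proteins and splicing kinases considered, and both genes at the boundary. The 10 members with little annotated retained-intron sequence, the comparison gene Galc and the second set of sequences were chosen after their values were seen. Some results for named members, and 1 of the sequences, are not reported here. Alternatives were TPM, the second table, a denominator of coding and intron-keeping transcripts only, count minimums of 1000 and 100, a pseudocount of 1, leaving out each replicate, and leaving out overlapping genes. Python 3.11.15, pandas 2.3.3, numpy 2.4.6, scipy 1.17.1 and matplotlib 3.10.9 were used.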

Additional observations from a re-analysis of the deposited data

How the results depend on the processing

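The median share of the selected genes was 75.3% as reported. It was 69.7% on TPM and 78.1% with only protein-coding and retained_intron transcripts in the denominator. Every other alternative kept it within the spread between libraries. Alternatives that only left out genes kept members chosen on this share, so there the median could not fall below 66.0%. For the other genes, against 15.9% as reported, the median was 30.1% on TPM, 19.8% in the second table, 17.0% with the narrower denominator, 17.8% with a count minimum of 100 and 13.7% without overlapping genes. Of the 200 genes, 119 stayed among the 200 highest shares on TPM, 168 in the second table, 170 with the narrower denominator, 189 to 190 when 1 replicate was left out, 191 without genes overlapping a small RNA gene and 101 with a count minimum of 100, where 5886 genes were ranked. A count minimum of 1000 left 121 members and leaving out overlapping genes left 122; all of these were kept and had 50% or more in every library, so these lower counts follow from fewer genes. The log2 difference in level between selected and other genes, 0.24 as reported, was -0.055 in CPM, the reverse direction, and 1.02 with a count minimum of 100, which adds low genes to the others. Counting only the longest retained intron per gene gave medians of 1174 bases in the selected genes and 600.0 in the others. Of the 111 named genes, 29 stayed within 1 SD on TPM, 59 in the second table and 82 with the narrower denominator. All 111 stayed without each replicate, but this was fixed by arithmetic. Leaving out 1 of 3 libraries cannot move a mean by 1 SD, so that count says nothing about stability.

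The depth of the genes considered, at least 500 counts on average, gave 95% intervals up to 12.5 points wide in the selected genes, which is more than the gap between genes at the boundary. The division of reads among overlapping transcript models, precursor RNA and partners on the other strand limit what a share means. No paired analysis was possible because all samples belong to 1 group.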
